A study of Mus musculus with 14 samples.

Results

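Neuronal intermediate filaments are described here by 6 genes, chosen by their symbols through the RefSeq accessions of the deposited tables: the neurofilament light, medium and heavy chains (Nefl, Nefm and Nefh), alpha-internexin (Ina), peripherin (Prph) and nestin (Nes). All 6 were found among the 23152 loci listed in each of the 6 expression tables. The study asked what TAF9B, a subunit shared by the general transcription machinery and by histone acetyltransferase complexes, does when mouse embryonic stem (ES) cells are turned into motor neurons. Poly-A RNA was sequenced in 11 libraries, 1 per condition, and chromatin immunoprecipitation (ChIP) gave peak lists for TAF9B and for RNA polymerase II (POL2).

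The wild type (WT) culture libraries came from the C57BL/6 ES line JM8, and the KO libraries from the ES clone Taf9b_BG10, labelled TAF9B -/-, male cells in which a LacZ-Neo reporter and selection cassette stands in place of the coding exons of the X-linked Taf9b gene. Both lines were kept on layers of inactivated mouse fibroblasts. Cells were taken as ES cells and as embryoid bodies (EBs, floating aggregates) after 2, 4 and 6 days in medium with retinoic acid and the smoothened agonist SAG, an activator of Hedgehog signalling, in both genotypes. Spinal column, WT and KO, and spinal cord, WT, were from newborn mice of the same background. Spinal column is the whole lumbar piece, vertebrae included, from littermates (how many animals per library is not stated), while spinal cord is the dissected nervous tissue. The ChIP samples were EBs enriched in motor neurons at day 8 from HBG3, another ES line, which carries GFP driven by the promoter of the motor neuron gene Mnx1. An IgG control ChIP was not analysed here. Because each genotype was 1 clone and each condition 1 library, clone and genotype cannot be told apart, no value below has a replicate error, and no difference was tested statistically.

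Intermediate filaments are the rope-like polymers that, with actin filaments and microtubules, make up the cytoskeleton. In mature neurons the 3 neurofilament chains assemble with alpha-internexin, or with peripherin in neurons that send axons out of the central nervous system, and the filaments fill and widen the axon. Alpha-internexin and the light and medium chains come on early in neuronal life and the heavy chain late, while nestin marks dividing neural progenitors and is replaced as they become neurons.

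Taf9b, the targeted gene, was at 0.537, 0.516, 1.96 and 1.37 FPKM (sequenced fragments scaled for transcript length and library size) in the WT ES, day 2, day 4 and day 6 libraries. In the libraries labelled KO it was at 3.06, 4.08, 4.27 and 4.01 FPKM at the same stages, so that the label goes against the transcript level in all 4 pairs. The files give no exon-level values that could tell transcripts with and without the replaced sequence apart, and the study's qRT-PCR and protein blots for TAF9B in these lines were not analysed here. In the spinal column it was at 6.65 FPKM in WT and 3.31 FPKM in the library labelled KO, and in WT spinal cord at 7.44 FPKM. For this reason the KO samples are called libraries labelled KO throughout.

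By the gene models of mouse build mm9, Nefl (chr14:68701920-68707152, plus strand) and Nefm (chr14:68737340-68742903, minus strand) are neighbours whose start sites lie 41.0 kb apart. Nefh is at chr11:4838757-4848067 on the minus strand, Ina at chr19:47089188-47099817, Prph at chr15:98885605-98889409 and Nes at chr3:87775015-87784373, the last 3 on the plus strand. Of the measured loci 3 touch another gene: the table joins Nefm with the noncoding A230070E04Rik, Ina with Nt5c2 and Nefh with Ap1b1, and whether the libraries kept strand is not stated. A230070E04Rik was high where Nefm was in tissue, at 93.3 FPKM in WT spinal column and 125 in spinal cord, and was at 33.1 FPKM in the spinal column library labelled KO, but not in day 6 EBs, where it was at 0.225 FPKM in WT beside 107 FPKM for Nefm. Nt5c2 was at 24.0 and 19.2 FPKM and Ap1b1 at 32.2 and 25.4 FPKM in the day 6 WT and KO-labelled libraries, both within 2-fold of each other.

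RefSeq promoter sequence (build GRCm38.p6) was at hand for 3 of the 6 genes, Ina, Prph and Nes. The 150 bases before each start are printed below because Ina and Nes had a POL2 peak at the start and Prph had none. Capitals mark TATAAA, the core promoter letters bound by the TATA-binding protein, and GGGCGG, the GC box of Sp1-type factors, on either strand (CCGCCC on the other strand).
Ina (chr19:47014531-47014680, plus strand): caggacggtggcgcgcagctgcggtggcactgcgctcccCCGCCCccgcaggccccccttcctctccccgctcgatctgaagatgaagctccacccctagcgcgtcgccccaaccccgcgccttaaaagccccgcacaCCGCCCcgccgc
Prph (chr15:99055024-99055173, plus strand): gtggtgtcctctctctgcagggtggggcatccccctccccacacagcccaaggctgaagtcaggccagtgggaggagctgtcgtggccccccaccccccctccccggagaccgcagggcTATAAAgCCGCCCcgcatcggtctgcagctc
Nes (chr3:87970943-87971092, plus strand): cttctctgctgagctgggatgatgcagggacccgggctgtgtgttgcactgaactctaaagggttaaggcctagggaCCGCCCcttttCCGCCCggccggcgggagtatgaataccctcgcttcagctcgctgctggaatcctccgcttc
TATAAA stood 31 bases before the start of Prph and in neither of the other promoters, over 250 bases. It occurs in 12.4% of the 32851 promoters of this length in the RefSeq table. GGGCGG occurred in all 3, at 2 places in Ina and Nes, against 32.7% of all promoters. The E-box letters CAGCTG, bound by helix-loop-helix factors, were found in Ina alone, against 13.0% of all promoters. A CCAAT box (33.8% of all promoters), the neurogenic E-box CAGATG (14.4%), the nuclear receptor letters AGGTCA (14.0%) and the homeodomain letters TAATTA (4.84%) were not in these windows. G and C made up 70.8% of the Ina promoter, 65.2% of Prph and 58.8% of Nes.

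Before neurons appear, the 6 genes were already transcribed to different degrees. In ES cells Nefl and Ina, at 25.9 and 24.8 FPKM in WT, were the highest, and Nefm was below 1 FPKM. Nefl was at 25.9 FPKM in the WT and 33.0 FPKM in the KO-labelled ES library, and Ina at 24.8 and 30.7 FPKM. The same WT ES library, listed again beside spinal cord, had 28.2 FPKM for Nefl and 27.0 for Ina, since values in that table are higher by a median factor of 1.09 over 11880 loci. Nes was at 9.44 FPKM in WT and 6.90 in the library labelled KO, Prph at 4.76 and 4.32, Nefh at 4.37 and 4.38, and Nefm at 0.531 and 0.515. None of the 5 genes above 1 FPKM was past 2-fold between these ES libraries, where 0.590% of loci were lower and 0.540% higher by that measure. The 5 fibroblast markers, as carried by the feeder layer, summed to 366 FPKM in WT ES cells, 58.1 at day 2 and 4.82 at day 4, and vimentin (Vim), the filament of fibroblasts and progenitors, stood at 413, 85.3 and 219 FPKM. The part of feeder cells in the ES values of Nefl and Ina was not tested.

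**Figure D1:**
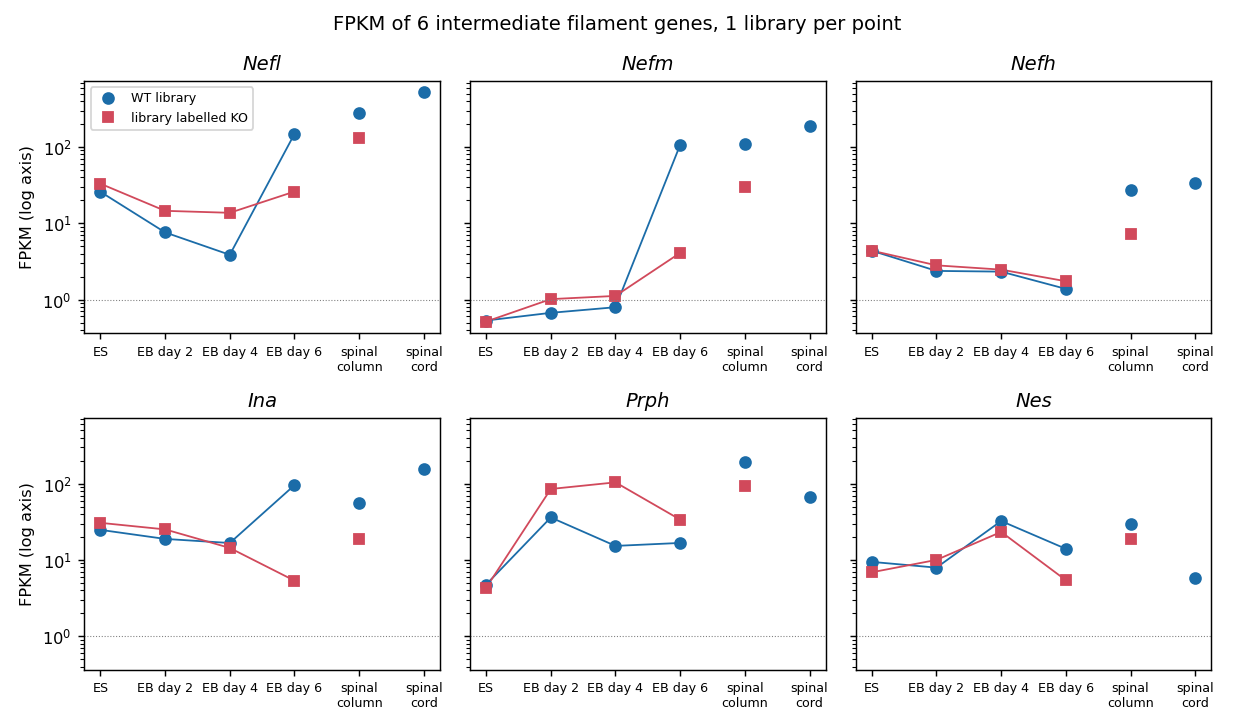
FPKM (log axis) of each gene in ES cells, EBs of days 2, 4 and 6, spinal column and spinal cord. Circles are WT libraries, squares libraries labelled KO, 1 library each; lines join the culture stages. Nefl, Nefm and Ina climb to between 95.7 and 148 FPKM in WT at day 6 and are at or under 26.0 FPKM in the day 6 library labelled KO, while Prph is the higher in the library labelled KO at days 2, 4 and 6.

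In the WT time course the genes were highest at different stages. Prph came first: it went from 4.76 FPKM in ES cells to 36.1 at day 2, a log2 difference of 2.92, and 54 of 12290 loci had a larger one. It was then at 15.3 FPKM at day 4 and 16.7 at day 6. Nes, the progenitor filament, was highest at day 4, at 32.4 FPKM, between 7.94 at day 2 and 14.0 at day 6. The day 4 samples are labelled neuronal progenitors, and there 8 of 8 progenitor markers were above 1 FPKM, with a sum of 401 FPKM in WT.

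Nefl, Nefm and Ina were highest at day 6, the stage labelled motor neuron. Nefm went from 0.794 FPKM at day 4 to 107 at day 6 (log2 difference 7.07, exceeded by 28 of 12814 loci). Its day 4 value is below 1 FPKM, and the difference is smaller with 1 FPKM added, as given in the last section. Nefl had first dropped from 25.9 FPKM in ES cells to 7.60 at day 2 and 3.86 at day 4, and was at 148 FPKM at day 6, a log2 difference of 5.27 from day 4. Ina stayed between 16.7 and 24.8 FPKM up to day 4 and was at 95.7 FPKM at day 6. Nefh, the late chain, showed nothing of the kind: its WT values were 4.37, 2.37, 2.32 and 1.38 FPKM from ES cells to day 6. Nefl over Nefh was therefore 108 at day 6, against 5.92 in ES cells and 15.3 in spinal cord. From day 4 to day 6 in WT, 3 of the 6 genes were past 2-fold higher (17.0% of loci were) and 1, Nes, past 2-fold lower (9.98% of loci). The step goes with a culture in which 10 of 10 neuron markers and 7 of 7 motor neuron markers above 1 FPKM were past 2-fold higher. ES cell markers (5 of 5, sum 30.1 and 342 FPKM at days 4 and 6) and fibroblast markers (5 of 5, 4.82 and 42.6 FPKM) were past 2-fold higher as well. In bulk RNA more cells of a type and more RNA per cell cannot be told apart.

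In the libraries labelled KO the same interval looked different. Nefm went from 1.12 to 4.09 FPKM and Nefl from 13.7 to 26.0, while Ina went down from 14.4 to 5.36 FPKM, Prph from 104 to 33.8 and Nes from 23.3 to 5.43. That left 1 of 6 genes past 2-fold higher, where 12.4% of loci were, and 3 past 2-fold lower, where 11.1% of loci were. Ina thus had log2 differences of 2.52 in WT and -1.42 in the libraries labelled KO over the same 2 days, the 1 gene of the 6 past 2-fold in opposite directions, as were 0.525% of loci. Of 5 neuron markers above 1 FPKM, 2 were past 2-fold higher and 2 lower in these libraries between days 4 and 6, with sums of 55.7 and 117 FPKM, and ES cell markers summed to 180 and 886 FPKM. These steps and the comparisons by stage below share their libraries.

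Set side by side by stage, the first gene to part the 2 lines was Prph. At day 2 it was at 36.1 FPKM in WT and 85.3 in the library labelled KO (log2 1.24, exceeded by 92 of 11968 loci). It was the only gene of the 6 past 2-fold at that stage, where 1.19% of loci were past 2-fold higher and 1.40% lower. Nefl followed it closely at 7.60 and 14.6 FPKM (log2 0.94), and all 6 ratios were above 0, with a median of 0.51 against 0.00 over all loci. Of 10 other intermediate filaments above 1 FPKM 8 were above 0, and Krt7 and Krt8 past 2-fold higher, and of 14 other axonal cytoskeleton genes 11 were above 0, with a median of 0.31. At day 4 Prph reached 104 FPKM in the library labelled KO against 15.3 in WT, its widest gap in the series (log2 2.77), and Nefl was at 13.7 against 3.86 FPKM (log2 1.83). Those 2 of 6 were past 2-fold higher, as were 12.1% of loci, and none was past 2-fold lower, as were 4.46%. Nefm (log2 0.49), Nefh (0.09), Ina (-0.22) and Nes (-0.47) were within 2-fold.

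The neuron list did not move with Prph and Nefl at day 4. Of the 7 neuron markers above 1 FPKM, 2 were past 2-fold lower and none higher, and the sums were 66.3 FPKM in WT and 55.7 in the library labelled KO. Higher there were, among others, the ES cell markers (5 of 5, sum 30.1 FPKM in WT and 180 in the library labelled KO), the fibroblast markers (5 of 5, 4.82 and 27.2 FPKM) and, among other intermediate filaments, 7 of 10 above 1 FPKM, with keratin 18 (Krt18), an epithelial filament, at 29.8 and 128 FPKM. Of 4 lists with 1 gene above 1 FPKM, that gene was past 2-fold higher in 3: the motor neuron gene Mnx1, at 2.32 and 5.01 FPKM, the endothelial Pecam1, at 1.13 and 6.81, and the cartilage collagen Col2a1, at 9.30 and 27.3. The Schwann cell gene Prx was at 1.04 and 1.01 FPKM. Progenitor markers were past 2-fold lower in 6 of 8, with sums of 401 and 143 FPKM, yet Nes was at 32.4 and 23.3 FPKM. The part of these other cells in the Prph and Nefl values was not tested.

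**Figure D2:**
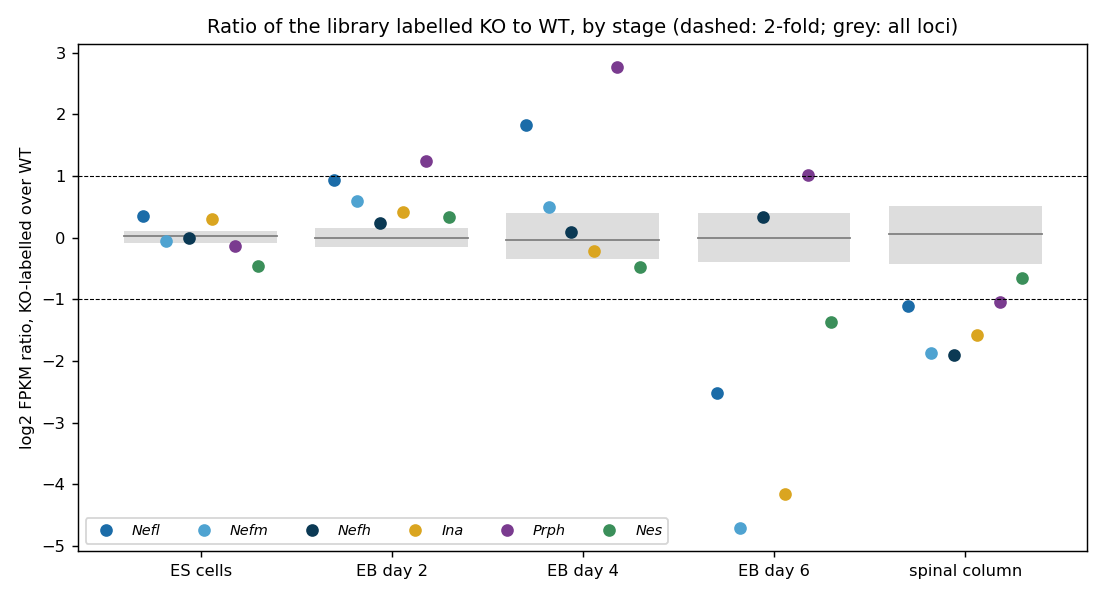
The log2 ratio of FPKM in the library labelled KO to WT, for the 6 genes at each stage. Grey boxes span the middle 50% of all loci above 1 FPKM with their median as a line, and dashed lines mark 2-fold. Ratios of the 6 genes lie within 0.46 of 0 in ES cells, spread from -4.70 to 1.02 at day 6, and all lie below 0 in the spinal column.

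At day 6 the early neuronal filaments were far lower in the library labelled KO. Nefm was at 107 FPKM in WT and 4.09 in the library labelled KO (log2 -4.70), and 80 of 13006 loci had a lower ratio. Ina was at 95.7 and 5.36 FPKM (log2 -4.16), with 114 loci lower. Nefl was at 148 and 26.0 FPKM (log2 -2.51), with 366 loci lower. Nes, at 14.0 and 5.43 FPKM (log2 -1.37), was lower by less. Prph was the exception, at 16.7 FPKM in WT and 33.8 in the library labelled KO (log2 1.02), just past 2-fold and just under it (0.97) when 1 FPKM was added to both values. Nefh stayed low in both, at 1.38 and 1.74 FPKM. In all, 4 of 6 genes were past 2-fold lower, where 9.93% of loci were, and 1 was past 2-fold higher, where 10.5% of loci were.

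The ratios differed enough between genes to change which filament led. Nefl, Nefm and Ina made up 38.8%, 27.9% and 25.0% of the summed FPKM of the 6 genes in the WT day 6 library, and Prph 4.37%. In the library labelled KO Prph made up 44.2%, Nefl 34.1% and Nefm 5.35%, of a sum of 76.5 FPKM against 383 in WT. Nefl over Nefm was 1.39 in WT and 6.36 in the library labelled KO.

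**Figure D3:**
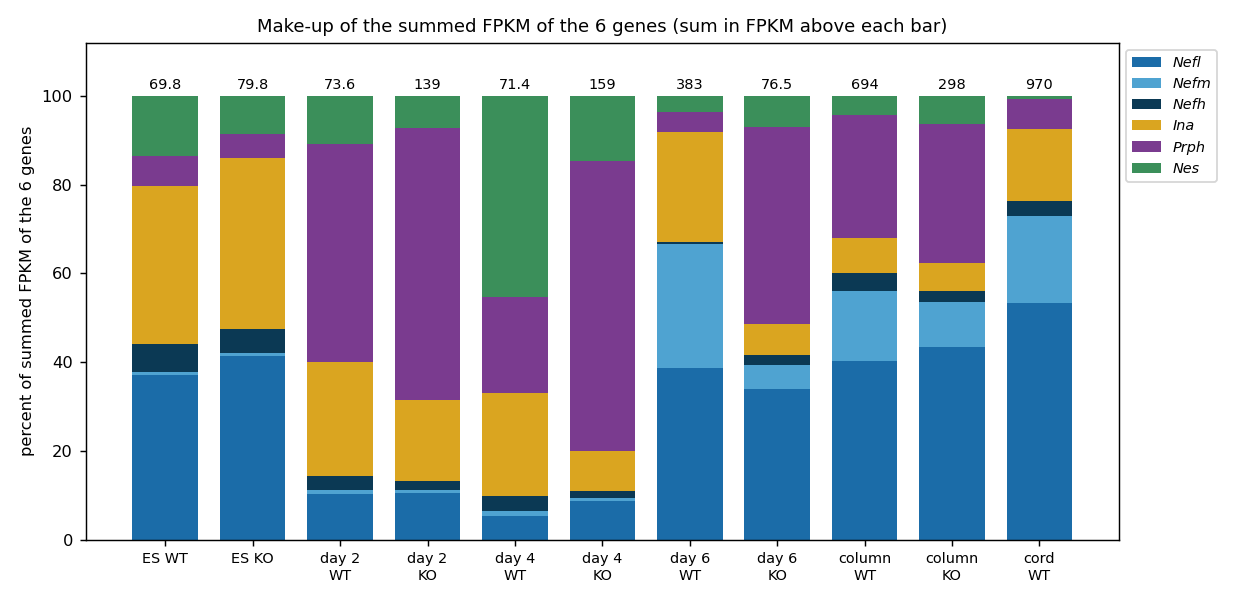
Share of each gene in the summed FPKM of the 6 genes (percent, stacked to 100), with the sum in FPKM above each bar, 1 library per bar. Prph makes up 65.4% in the day 4 library labelled KO and 44.2% at day 6, against 21.4% and 4.37% in WT.

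Other parts of the neuronal cytoskeleton were lower at day 6 as well. Of 15 other axonal cytoskeleton genes 12 were past 2-fold lower, with a median log2 ratio of -1.93 against 0.00 over all loci and -1.94 over the 6 filament genes. Doublecortin (Dcx), a microtubule protein of young neurons, was at 17.0 and 0.719 FPKM in WT and the library labelled KO, and neuronal beta-III tubulin (Tubb3) at 561 and 41.3 FPKM. Spectrin alpha (Sptan1), which many cell types use, was at 29.1 and 44.1 FPKM. Among 14 linkers, motors and kinases that act on neurofilaments, 5 were past 2-fold lower and none higher: Cdk5r1, which activates the neurofilament kinase Cdk5, was at 7.28 and 0.596 FPKM, and the neuronal kinesins Kif5c and Kif5a at 16.2 and 2.26 and at 6.47 and 1.32 FPKM. Cdk5 itself was at 22.1 and 15.9 FPKM and the widely used kinesin Kif5b at 19.6 and 24.5 FPKM. Of the giant linkers that tie filaments to other structures, Dst was at 2.43 and 2.09 FPKM and Plec at 2.16 and 4.24 FPKM.

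Several keratins, filaments of epithelia, were higher in the day 6 library labelled KO. Of 11 other intermediate filament genes above 1 FPKM, 6 were past 2-fold higher and none past 2-fold lower, with 4 ratios below 0. Krt8 and Krt18 were at 47.2 and 441 and at 60.4 and 484 FPKM in WT and the library labelled KO, Krt7 at 17.0 and 109, and Krt19 at 20.8 and 133. Vim was at 311 and 196 FPKM (log2 -0.66), and glial fibrillary acidic protein (Gfap), the astrocyte filament, was at 0.173 and 0.251 FPKM. Over the marker lists, neurons were past 2-fold lower in 10 of 10 (sum 1016 and 117 FPKM), motor neurons in 7 of 7 above 1 FPKM (78.3 and 3.37 FPKM, with Chat, the acetylcholine-making enzyme, listed at 0 in the library labelled KO) and progenitors in 7 of 8 (208 and 114 FPKM), while ES cell markers were past 2-fold higher in 4 of 5 (342 and 886 FPKM), fibroblast markers in 2 of 5 (42.6 and 106 FPKM) and endothelial markers in 2 of 2 above 1 FPKM (7.35 and 21.8 FPKM). Sensory ganglion markers were past 2-fold lower in 2 of 4 above 1 FPKM (15.0 and 8.97 FPKM). The part of cell make-up in the filament values was not tested.

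**Figure D4:**
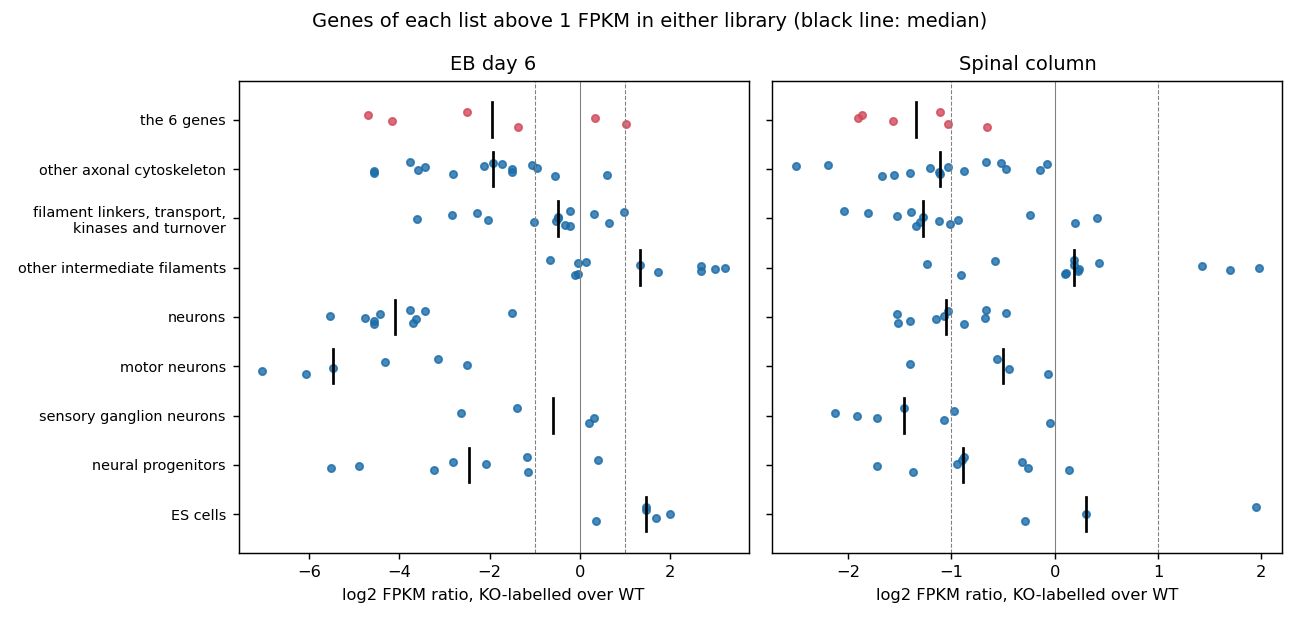
The log2 ratio of FPKM in the library labelled KO to WT for each gene of a list above 1 FPKM, at EB day 6 (left) and in the spinal column (right). Black lines are medians; a gene listed at 0 enters the median and has no point. The 6 filament genes sit at a median of -1.94 at day 6 and -1.34 in the spinal column, while neurons sit at -4.09 and -1.05.

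In newborn tissue all 3 neurofilament chains were present. In WT spinal cord Nefl was at 518 FPKM (rank 123 of 13094 loci above 1 FPKM), Nefm at 189, Ina at 156, Prph at 67.2, Nefh at 33.9 and Nes at 5.74 FPKM. Against ES cells in the same table, 5 of 6 genes were past 2-fold higher, where 30.4% of loci were, led by Nefm (log2 8.35 from 0.579 FPKM), Nefl (4.20) and Prph (3.70). Nes was within 2-fold at log2 -0.84, and none of the 6 was past 2-fold lower, where 35.7% of loci were. The median of all loci in this pair was -0.26. Nefh, at 1.38 FPKM in WT EBs of day 6, was at 27.0 and 33.9 FPKM in the WT spinal column and cord, which are separate tables.

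The WT spinal column and cord, from separate tables, ordered the genes differently. Nefl (280 FPKM in column, 518 in cord), Nefm (110 and 189) and Ina (55.5 and 156) were higher in the cord, whereas Prph (193 and 67.2) and Nes (29.4 and 5.74) were higher in the column. Only Ina, Prph and Nes were past 2-fold. Nefl, Nefm and Nefh (27.0 and 33.9 FPKM) were within it. Whether the dissected column held dorsal root ganglia is not stated, and Prph is a filament of sensory and other peripheral axons. Of 7 sensory ganglion markers found, 5 were past 2-fold lower in the cord, where 2461 of 14214 loci were. Their sums were 138 FPKM in the column and 37.9 in the cord for all 7. Among the 5 were Avil at 28.1 and 2.48 FPKM and Prdm12 at 10.1 and 0.632. The other 2 were not lower, Pou4f1 at 8.76 and 10.8 FPKM and Tlx3 at 8.63 and 10.4. Progenitor markers did not go with Nes: 7 of 8 were past 2-fold higher in the cord, where 2279 of 14214 loci were. Their median log2 ratio of cord over column was 1.84, and Notch1 was within 2-fold. The part of sensory neurons in the level of Prph, and of other cells in that of Nes, was not tested.

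All 6 filaments had less transcript in the KO-labelled spinal column than in WT. Nefh was at 27.0 FPKM in WT and 7.22 in the library labelled KO (log2 -1.90), with 158 of 14255 loci lower still. Nefm was at 110 and 30.0 FPKM (log2 -1.87), with 170 loci lower, and Ina at 55.5 and 18.7 FPKM (log2 -1.57). Nefl, at 280 and 130 FPKM (log2 -1.11), and Prph, at 193 and 94.0 FPKM (log2 -1.03), were nearer 2-fold, and Nes, at 29.4 and 18.6 FPKM (log2 -0.66), was within it. That is 5 of 6 past 2-fold lower, where 8.54% of loci were, and none past 2-fold higher, where 9.05% of loci were. The median of the 6 ratios was -1.34, beside 0.06 over all loci. Prph, higher in the library labelled KO at days 2, 4 and 6, was here lower, and Nefh, alike in the 2 lines at every culture stage, had the lowest ratio. Over the 5 stages Nefl and Prph, 2 of the 6 genes, were past 2-fold in opposite directions at some pair of stages, as were 2.10% of loci.

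Transcript length and tissue make-up were measured in the spinal column pair beside these values. By length, coding genes within 1.2-fold of the length of Nes (6126 bases) had a median log2 ratio of -0.51, those near Nefh (3994 bases) -0.15 and those near Prph (1865 bases) 0.34. Relative to genes of like length Nes was at -0.15, Nefh at -1.75, Nefm at -1.75, Ina at -1.56, Prph at -1.37 and Nefl at -1.07, so that the same 5 genes were past 2-fold lower. Of the 6 genes, Nes had the lowest length median and the ratio nearest 0. The same measure at day 6 gave medians of 0.00 to 0.06. As to the make-up of the tissue, neuron markers were past 2-fold lower in 6 of 10 (sum 1004 and 602 FPKM, median -1.05), sensory ganglion markers in 5 of 7 found (138 and 74.8 FPKM, median -1.46) and motor neuron markers in 1 of 4 above 1 FPKM (36.3 and 19.1 FPKM). That motor neuron marker was Isl2, at 19.7 and 7.46 FPKM, which was at 3.07 FPKM in WT spinal cord. Isl1, Slc18a3 and Slc5a7 were within 2-fold. Of 8 progenitor markers 7 were below 0 and 2 of them past 2-fold lower, Nkx6-1 (2.77 and 0.838 FPKM) and Notch1 (5.40 and 2.09 FPKM), with a median of -0.89. Their sums of 163 and 165 FPKM were carried by Fabp7, at 136 and 150 FPKM. Astrocyte and oligodendrocyte markers summed to 148 and 115, Schwann cell markers to 155 and 121, cartilage and bone to 280 and 266, fibroblasts to 3402 and 2596, and endothelium to 70.2 and 73.9 FPKM. Skeletal muscle markers summed to 4691 and 997 FPKM, but Acta1 was listed at 0 in both libraries and Ckm in the library labelled KO, 2 abundant transcripts for which the value may be a failed estimate. The part of tissue make-up and of length in the filament values was not tested.

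The partners of neurofilaments were also lower in this pair. Of 13 linkers, motors and kinases above 1 FPKM 9 were past 2-fold lower, among them the giant linkers Dst (9.39 and 2.28 FPKM) and Plec (34.4 and 13.1 FPKM) and the kinesins Kif5a (45.6 and 13.1) and Kif5c (40.1 and 13.9). Cdk5 was at 16.0 and 21.3 FPKM. The ratios of these partners, whose giant linkers have very long transcripts, were not set against genes of like length. Of 15 other axonal cytoskeleton genes 9 were past 2-fold lower, with a median of -1.11, from Map1b, a long microtubule-associated protein gene, at 70.1 and 12.3 FPKM to Tuba1a at 1782 and 1693 FPKM. Among other intermediate filaments 1 of 13 was past 2-fold lower, Synm (6.11 and 2.60 FPKM), and 3 were higher, Krt7, Krt8 and Krt19, with Krt8 the highest at 2.09 and 8.24 FPKM. Vim was at 1004 and 1140 FPKM and Gfap at 23.5 and 15.8 FPKM.

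Across the 11 RNA-seq libraries, the gene pair with the highest correlation was Nefl and Nefm (Pearson r = 0.92 on log2(FPKM + 1), Spearman rho = 0.70), though Nefl over Nefm ranged from 1.39 to 64.2. By Pearson r Nefl and Nefh came next (r = 0.75, rho = 0.54), and by rho Nefl and Ina (r = 0.72, rho = 0.69). Prph correlated with the others at r of 0.06 to 0.45 (with Nefm r = 0.45, rho = 0.63) and Nes at -0.09 to 0.34. These are descriptions over 11 libraries that share tissues and clones. Among 12483 genes reaching at least 5 FPKM, the nearest to Nefm were Ecel1 (r = 0.987), Dcx (0.987) and Cbln1 (0.985), and to Nefl Gramd1a (0.966), Map6 (0.962) and Sfxn3 (0.957). The nearest to Nefh were Sv2c (0.967), Ncoa1 (0.966) and Gad1 (0.965), and to Ina Slc29a4 (0.930), Galnt9 (0.920) and Nova2 (0.919). Prph had its nearest in Gpr137b-ps (0.895), Klf15 (0.889) and Pik3ip1 (0.878), and Nes in Usp25 (0.926), Erbin (0.923) and Mpdz (0.911). Among these 18 genes Map6 stabilises microtubules, Dcx marks young neurons, Gad1 makes the transmitter GABA and Sv2c is a synaptic vesicle protein. The others, with Gramd1a and Gpr137b-ps as the nearest to Nefl and Prph, are not described here. Whether the 18 hold more neuronal genes than others was not tested.

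TAF9B peaks lay near most of the 6 genes, but at a start site only for Nefl. Counting midpoints up to 50 kb from the start site, 5 of 6 had a TAF9B peak and the same 5 a POL2 peak, where 69.8% and 76.9% of 11038 coding genes above 1 FPKM at EB day 6 did. Within 500 bp of the start, TAF9B was found for 1 of 6 (31.0% of those genes) and POL2 for 3 of 6, Nefl, Ina and Nes (54.1%). Both shares near 50 kb are close to those of expressed genes at large. The ChIP was done at day 8 in another line, 2 days after the last RNA sample.

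The Nefl peak (chr14:68701696-68702003, with a score of 93.1 as the peak caller wrote it) was centred 70 bases before the start and lay wholly inside a POL2 peak (chr14:68701659-68702879, score 187). TAF9B scores had a median of 83.3 over 10415 peaks and POL2 scores 134 over 8620 peaks. Nefl had a second TAF9B peak 42.9 kb upstream (score 98.5), in intergenic sequence and without POL2. Nefm had a TAF9B peak 0.88 kb before its start (chr14:68743703-68743856, score 66.5) and no POL2 peak nearer than that of Nefl, 40.6 kb away. Its 300 bases about the midpoint (chr14:68743630-68743929, build mm9), read along the minus strand, are shown since they are the only TAF9B-bound sequence next to the gene with the widest day 6 difference, with the called peak in capitals.
Nefm: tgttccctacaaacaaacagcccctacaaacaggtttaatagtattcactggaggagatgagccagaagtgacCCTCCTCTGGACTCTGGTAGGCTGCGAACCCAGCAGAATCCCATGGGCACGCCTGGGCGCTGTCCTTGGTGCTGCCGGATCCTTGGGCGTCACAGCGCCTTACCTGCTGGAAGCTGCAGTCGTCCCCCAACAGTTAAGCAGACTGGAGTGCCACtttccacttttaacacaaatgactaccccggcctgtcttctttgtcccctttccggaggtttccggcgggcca
None of the 7 motifs searched on both strands, those of the promoters above, occurs in it. Among 10402 TAF9B windows of 300 bases, 7.43% held TATAAA and 36.5% held GGGCGG. The E-boxes CAGCTG and, in its other form, CAGATG stood in 22.7% and 18.5% of these windows. A CCAAT box stood in 39.5%, the nuclear receptor letters in 12.3% and the homeodomain letters in 4.91%.

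Nes had the highest scoring TAF9B peak within 50 kb of any of the 6 genes. It lay 10.1 kb upstream of the start in intergenic sequence, nearer to the start of Crabp2, a retinoic acid-binding protein gene, at 8861 bases (chr3:87764760-87765094, score 214, rank 785 of 10415) and wholly within a POL2 peak (chr3:87764438-87765115, score 241). The central 300 bases (chr3:87764778-87765077, plus strand, mm9) are printed with GGGCGG on either strand in capitals.
Nes: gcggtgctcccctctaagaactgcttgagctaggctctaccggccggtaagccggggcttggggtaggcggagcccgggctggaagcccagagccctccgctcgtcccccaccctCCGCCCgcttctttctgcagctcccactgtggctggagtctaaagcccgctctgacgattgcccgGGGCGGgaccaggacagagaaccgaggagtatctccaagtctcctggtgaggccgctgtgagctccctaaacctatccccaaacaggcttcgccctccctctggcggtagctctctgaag
They hold GGGCGG at bases 116 and 181, and G and C make up 64.7% of them. A pair of TAF9B peaks lay 16.1 and 16.7 kb downstream of the Nes start, toward Bcan, the brevican gene, with scores of 142 and 73.2; the farther overlapped a POL2 peak. At the Nes start itself, where the printed promoter has its GC boxes, there was a POL2 peak (score 139) and no TAF9B peak.

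Ina, second to Nefm in its day 6 difference, had POL2 at its start (chr19:47089020-47089431, score 88.3) and its nearest TAF9B peak 43.5 kb upstream, in an intron of Nt5c2 (score 133). Prph, the only gene of the 3 printed promoters with TATAAA, had neither at its start; its nearest TAF9B peaks, 38.5 and 39.7 kb downstream in introns of Dnajc22, scored 89.9 and 67.2, and its nearest POL2 peak lay at the start of Troap, 19.5 kb away. Nefh had no peak of either kind within 50 kb, the nearest lying 52.7 kb away at the start of Thoc5. In all, 3 of the 9 TAF9B peaks within 50 kb of the 6 genes overlapped a POL2 peak, and 1 of the 9 lay within 500 bp of the start of a filament gene.

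**Figure D5:**
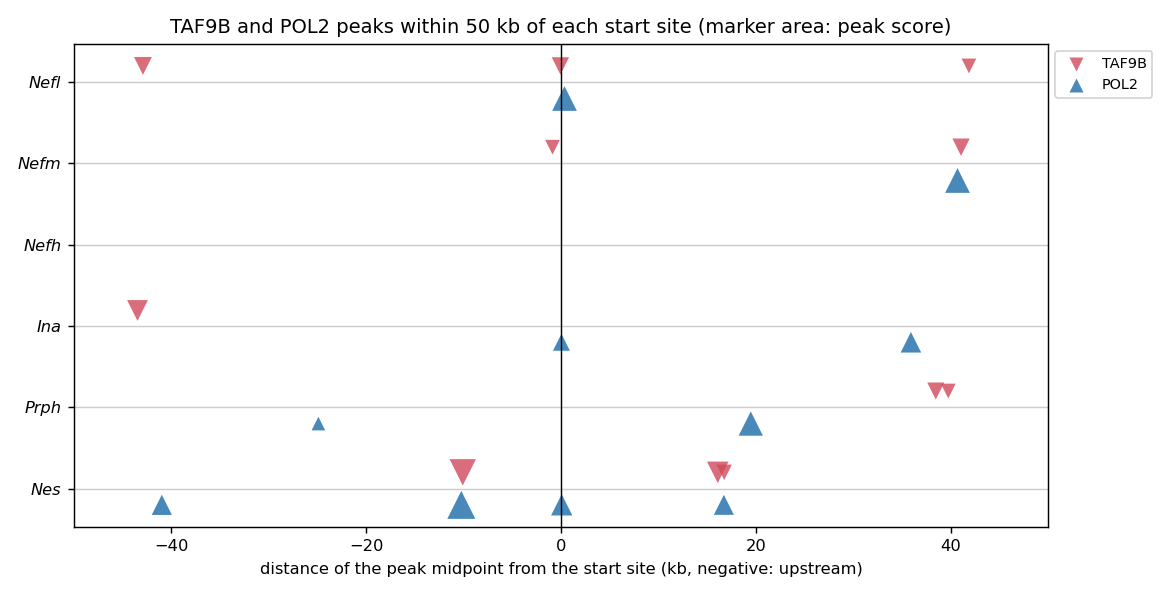
TAF9B (red, pointing down) and POL2 (blue, pointing up) peaks at day 8, by the distance of their midpoint from each start site in kb, with marker area in proportion to the peak score. Nefl has both at its start, Ina and Nes POL2 alone, and Nefh none of either within 50 kb; the Nefl and Nefm rows show some of the same peaks.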

How the data were processed

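RNA-seq was made in 11 libraries of 11 conditions and ChIP-seq in 3 samples, of which the TAF9B and POL2 peak lists were used. The deposited tables hold FPKM values that the authors computed with TopHat and Cuffdiff on RefSeq genes, 2 libraries per table in 6 tables, all in build mm9. Their columns of log2 fold changes, test statistics and p-values were not used. The deposited peak files hold a score per peak that the authors obtained with Bowtie and MACS, and its scale is not stated. Tool versions are not given in the sources used here. FPKM are per length and per library, and the values of low genes were not whole multiples of a read, so depth is unknown and no counting interval is given.

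Loci were joined across tables by accession and position and named through RefSeq (22832 of 23152 loci). Log2 ratios used no pseudocount. A locus counted when above 1 FPKM in either library and was called past 2-fold. There is 1 library per condition, so no test was run. The 6 genes and all lists were chosen with earlier results of these data known. Named genes are the 6 genes, Taf9b, Vim, Gfap, Krt18, per gene the 3 with the highest Pearson r, and list members at the extremes of their list; A230070E04Rik, Nt5c2 and Ap1b1, and other members of the lists given with values, were chosen after their values were seen. Start sites came from GENCODE M1 (mm9). Positions and distances used the start of the most upstream CCDS transcript. Counts of genes with a peak, and their shares over expressed genes, took any start of the coding gene. The ratio code was tested on simulated data (200 of 200 loci changed 4-fold were recovered in the comparison of EB day 6, over 23152 loci). Those loci were changed by exactly 4-fold without noise, so this checks the arithmetic and not the spread between libraries. Python 3.11.15, numpy 2.4.6, pandas 2.3.3 and matplotlib 3.10.9 were used. Drgx, Hba-a1 and Hbb-b1 of the lists were not found by symbol. Marker lists not named beside a result were read for all comparisons: blood (2 of 4 found) stood at sums of 17.9 and 32.2 FPKM in the spinal column pair.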

Additional observations from a re-analysis of the deposited data

Results flagged for a closer look

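The ratio of the library labelled KO to WT took opposite signs at 2 stages, each past 2-fold, for 2 of the 6 genes and for 2.10% of all loci, and with 1 library per condition the differences were not tested. Nefl had log2 ratios of 1.83 at EB day 4 and -2.51 at EB day 6, which are 4.34 apart, and its -1.11 in the spinal column is 2.94 from the day 4 value. Prph had 1.24, 2.77 and 1.02 at EB days 2, 4 and 6 and -1.03 in the spinal column, which lies 2.28, 3.80 and 2.05 from those values. From day 4 to day 6, Ina had log2 differences of 2.52 in WT and -1.42 in the libraries labelled KO, 3.94 apart, and this difference was likewise not tested. The day 4 and day 6 values come from different tables. Beside the Nefl pair, neuron markers summed to 66.3 FPKM in WT and 55.7 in the library labelled KO at day 4, and to 1016 and 117 FPKM at day 6.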

How the results depend on the processing

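No paired analysis was possible because each condition has 1 library and the labels give no replicate numbers. Over 424 alternatives no ratio or median past 2-fold turned its sign, and 405 of the values stayed within 1.5-fold of those given above. Adding an equal amount to both values, or centring on medians within 2-fold, could not turn the sign of a gene past 2-fold. The median in ES cells, 0.00, went to -0.02 centred on all loci, without the filter and centred on genes of like length. At 2-fold Nefh in WT day 2 over ES cells went from -0.88 to just past 2-fold with ES values from the spinal cord table, and Nefl in WT day 4 over day 2 from -0.98 to -1.06 when centred on all loci, past 2-fold. Centring on genes of like transcript length, and taking WT ES values from the spinal cord table, were chosen after seeing the data. With 4-fold in place of 2-fold, the genes past the fold numbered 0 at EB day 2, 1 at day 4, 3 at day 6 and 0 in the spinal column. For the time steps 4-fold left 1 in WT from ES cells to day 2, 1 from day 2 to day 4, and in the libraries labelled KO 1, 0 and 1 over the 3 steps. With 1.5-fold the count was 3 at day 2, 4 from ES cells to day 2 and 2 from day 2 to day 4 in the libraries labelled KO. Shares of all loci past 4-fold and 1.5-fold were not computed, so these counts stand without a background. Asking for over 1 FPKM in both libraries took Nefm out of the WT step from day 4 to day 6 and left a median of 0.13 in place of 1.32. Within 10 kb, 2 genes had a TAF9B peak and 3 a POL2 peak in place of 5 and 5, and within 100 kb all 6 had both. The shares of expressed genes at these windows were not computed. By Spearman's rho 5 of the 18 most similar genes were again named. Adding 1 FPKM lowered Nefm to 6.91 in spinal cord over ES cells, to 5.91 for WT day 6 over day 4 and to 1.27 for the libraries labelled KO.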
